A study of Mus musculus with 12 samples.

Results

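The 10 genes described here encode the core of MHC class I antigen presentation. They are the heavy chains H2-K1 and H2-D1, the light chain B2m, the peptide transporter subunits Tap1 and Tap2, the loading factor Tapbp, the inducible proteasome subunits Psmb8, Psmb9 and Psmb10, and the transactivator Nlrc5. They were chosen by gene symbol and not by a cut-off on a measured value, but with earlier results of these data known. All 10 were found once each among the 22915 genes of the count table. RNA sequencing was performed on cultured primary cardiomyocytes of male, 12-week-old C57/Bl6 mice, to compare signaling through LIFR, through OSMR and through both receptors in the same cells. Cultures received recombinant murine LIF (mLIF), recombinant murine OSM (mOSM), a recombinant human-like OSM (hlOSM), which is murine OSM with a loop exchanged for the human sequence, or the same volume of sterile PBS, the solvent, as control. Per the labels, each protein was added at 25 ng per mL for 24 h under normoxic conditions, and each of the 4 conditions is represented by 3 libraries, 12 in all. The study's methods give a lower concentration than the labels. Per the study's description, mLIF signals via LIFR, mOSM via OSMR, and hlOSM via both in murine cells. The labels do not say whether the libraries of a condition come from separate preparations, so the p-values measure the spread between these libraries, which may be technical. The spread tied to the replicate number was smaller than expected (5.86% of the variance within conditions, against 25%). P-values that take no account of the replicate number may therefore be too small.

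MHC class I molecules display peptides from proteins of the cell's own interior to CD8+ T cells. The proteasome cuts those proteins, the TAP transporter carries the peptides into the endoplasmic reticulum, and tapasin (encoded by Tapbp) holds an empty class I molecule, a heavy chain bound to beta-2-microglobulin, at the transporter until a peptide fits. Interferon gamma is the classical inducer of the whole set: it acts in part through IRF1, and NLRC5 then assembles on the promoters of class I genes. Resting cardiomyocytes are known for low class I display. LIF and OSM signal through gp130 receptor complexes and JAK kinases, with STAT3 as their main STAT.

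The 10 genes stood at very different levels in these cultures. Levels are given here in normalized counts per kb of exon, so that genes of different length can be compared. The length is that of all annotated exons of a gene joined, from 860 bases for B2m to 8493 for Nlrc5. It is 5476 for Tap1, 3381 for Psmb8 and 3660 for Psmb9. The order depends in part on this length. In plain normalized counts Tapbp (mean 264) stood above B2m (157), while Psmb8 (14.1) and Psmb9 (2.5) were again the lowest of the 10. B2m had the highest level of the 10 in every one of the 12 libraries, with a mean of 182 per kb, at percentile 97.3 of the 13184 genes tested. Tapbp (72.8), H2-D1 (57.6), Psmb10 (47.9) and H2-K1 (42.4) followed, and these 4 exchanged places among themselves from library to library. Tap2 was sixth in every library, at 14.1 per kb. Below it, Tap1 (9.39), Nlrc5 (5.21) and Psmb8 (4.17) again exchanged places between libraries. Psmb9 was last in all 12 libraries, at 0.683 per kb. For comparison, the 3 constitutive proteasome subunits that the inducible ones replace stood at 142 (Psmb6), 68.7 (Psmb7) and 67.6 (Psmb5) per kb.

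**Figure D1:**
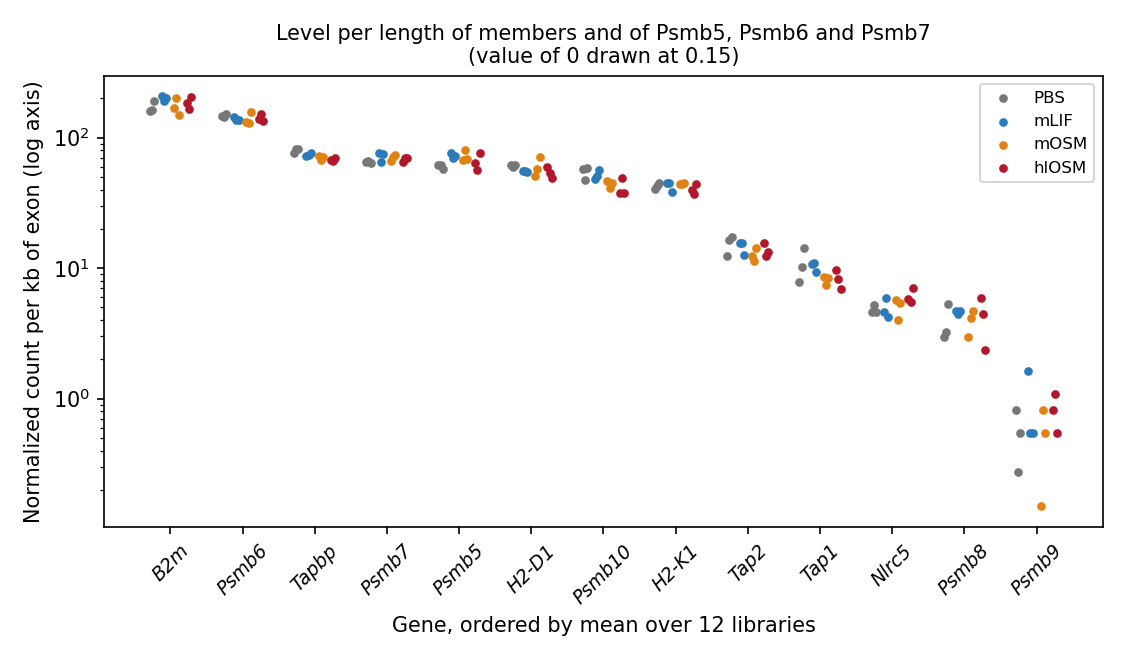
Normalized count per kb of exon (vertical axis, logarithmic) for the 10 class I genes and the constitutive subunits Psmb5, Psmb6 and Psmb7, ordered by the mean over 12 libraries. Each point is 1 library, coloured by condition, and the colours overlap for most genes, while the genes themselves spread from a mean of 182 for B2m to 0.683 for Psmb9.

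In the mm10 mouse genome, 7 of the 10 genes lie in the MHC on chromosome 17. In order along the chromosome these are Tapbp (33915899 to 33929292, plus strand), H2-K1 (33996017 to 34000347, minus strand), Psmb9 (34181987 to 34187764, minus strand), Tap1 (34187553 to 34197225, plus strand), Psmb8 (34197721 to 34201454, plus strand), Tap2 (34203527 to 34216321, plus strand) and H2-D1 (35262730 to 35267499, plus strand). Psmb9 and Tap1 stand head to head and overlap, and Psmb8 and Tap2 follow within 2.072 kb of their neighbour. B2m lies on chromosome 2 (122147686 to 122153083, plus strand). Nlrc5 (94434356 to 94527272, plus strand) and Psmb10 (105935735 to 105938444, minus strand) lie on chromosome 8.

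Few of the class I presentation genes passed the test with any cytokine, and those that did were lower. Of the 9 genes tested, mLIF raised 0 and lowered 0, mOSM raised 0 and lowered 1 (Tapbp), and hlOSM raised 0 and lowered 2 (Tapbp and Psmb10). Over all 13184 genes, mLIF changed 9.91% (5.47% raised, 4.44% lowered), mOSM 31.2% (15.4% raised, 15.8% lowered) and hlOSM 37.9% (18.2% raised, 19.8% lowered). In a set of 9 genes, counts of 0 raised and 0 to 2 lowered are near these shares for each direction. A gene was called at an adjusted p under 0.05, from limma on log2(normalized count + 1) with Benjamini-Hochberg adjustment over all genes tested, and every log2 fold change and adjusted p below comes from that fit. At an unadjusted p under 0.05 the counts were 1 of 9 with mLIF (B2m), 3 of 9 with mOSM (Tap1, Tapbp and Psmb10) and 3 of 9 with hlOSM (Tapbp, Psmb10 and Nlrc5), against 25.7%, 41.1% and 46.5% of all genes. For mLIF, mOSM and hlOSM in turn, the median log2 fold change of the 9 genes was -0.02, -0.03 and -0.15, beside medians under 0.01 in size over all genes tested. Without each library in turn these medians ranged from -0.06 (without mLIF replicate 2) to 0.05 (without mLIF replicate 3), from -0.16 (without mOSM replicate 3) to -0.027 (without PBS replicate 3), and from -0.24 (without hlOSM replicate 1) to -0.060 (without PBS replicate 3), and the mOSM median was -0.18 with a filter at 50. Psmb9 did not reach 10 normalized counts in 3 libraries and was not tested. The 3 comparisons share the PBS libraries, so they are not independent of each other.

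The heavy chains H2-K1 and H2-D1, which carry the peptide groove, and their partner B2m gave no call against PBS. Of the 9 log2 fold changes (3 genes, 3 cytokines), none passed the test (adjusted p 0.173 to 0.993), and they lay between -0.17 and 0.22. Their 95% intervals together reach from 0.770 to 1.35 times the PBS level, so a change beyond these bounds lies outside every interval. H2-K1 gave 118, 125 and 132 normalized counts in the PBS libraries, 131, 131 and 113 with mLIF, 130, 130 and 132 with mOSM, and 116, 108 and 130 after hlOSM. Each cytokine group overlaps the PBS group, and the lowest of the 12 values is an hlOSM library. H2-D1 gave 159, 154 and 159 in PBS, 144, 143 and 140 with mLIF, 132, 149 and 184 with mOSM, and 154, 139 and 127 after hlOSM. All 3 mLIF libraries lie below all 3 PBS libraries, as in 15.6% of all genes, and the change did not pass the test (log2 fold change -0.14, SE 0.10, adjusted p 0.379). B2m gave 138, 141 and 163 in PBS, 178, 163 and 174 with mLIF, 146, 172 and 128 with mOSM, and 157, 142 and 177 after hlOSM. The largest difference of this group was B2m with mLIF, at 1.17 times the PBS level (log2 fold change 0.22, SE 0.10, adjusted p 0.173), where the highest PBS library equals the lowest mLIF library.

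The promoters of these 3 genes are shown because they hold the classical elements through which class I genes answer interferon and NF-kB. The sequences are RefSeq's (build GRCm38.p6, the assembly of mm10): the 250 bases before the annotated start site, on the strand of the gene, which are chr17:34000348-34000597 (minus strand) for H2-K1, chr17:35262844-35263093 (plus strand) for H2-D1 and chr2:122147437-122147686 (plus strand) for B2m. Capitals mark matches, on either strand, to 4 patterns chosen after the sequences were seen: AANNGAAA, the core that interferon regulatory factors (IRF) bind, TTCNNNGAA for STAT dimers, GGGNN directly followed by TTNCC for NF-kB, and the CCAAT box that NF-Y binds. None of the matches shown overlaps another.
H2-K1: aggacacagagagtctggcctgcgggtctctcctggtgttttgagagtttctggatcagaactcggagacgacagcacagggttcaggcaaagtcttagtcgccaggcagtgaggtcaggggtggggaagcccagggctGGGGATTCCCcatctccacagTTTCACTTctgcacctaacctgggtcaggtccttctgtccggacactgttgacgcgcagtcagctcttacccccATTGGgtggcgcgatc
H2-D1: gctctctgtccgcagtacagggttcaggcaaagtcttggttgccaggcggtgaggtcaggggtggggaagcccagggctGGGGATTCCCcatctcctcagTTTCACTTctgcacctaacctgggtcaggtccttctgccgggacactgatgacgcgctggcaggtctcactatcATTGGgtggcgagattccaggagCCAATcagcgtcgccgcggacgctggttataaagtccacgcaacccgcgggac
B2m: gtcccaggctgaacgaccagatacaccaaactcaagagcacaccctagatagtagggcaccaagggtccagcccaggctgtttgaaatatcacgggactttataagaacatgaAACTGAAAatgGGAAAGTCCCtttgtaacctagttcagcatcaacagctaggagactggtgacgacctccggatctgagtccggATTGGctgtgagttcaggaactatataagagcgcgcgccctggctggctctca
Each of the 3 holds 1 NF-kB match next to 1 IRF match, and none holds a STAT match. Over the 32817 promoters of the RefSeq table, in windows of 250 bases before to 50 after the start site, 23.9% hold an IRF match, 4.80% an NF-kB match, 8.29% a STAT match and 37.4% a CCAAT box. In those longer windows H2-K1 and H2-D1 hold 2 CCAAT boxes each and B2m holds 1. The windows of H2-K1 and H2-D1 align over 239 bases, of which 88.3% are identical. A match is a description of letters and not evidence of binding, and the files hold no binding data.

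The peptide transport and loading genes held the clearest difference. Tapbp encodes tapasin, and it fell with both forms of OSM. It gave 277, 295 and 295 normalized counts in PBS, 264, 268 and 274 with mLIF, 261, 245 and 257 with mOSM, and 244, 238 and 251 after hlOSM. Every cytokine library lies below every PBS library, and every OSM library, murine or human-like, below every mLIF library. Tapbp stood at 0.846 times the PBS level with hlOSM (log2 fold change -0.24, SE 0.06, adjusted p 0.00384) and at 0.881 times with mOSM (log2 fold change -0.18, SE 0.06, adjusted p 0.0272). With mLIF the value was 0.930 times (log2 fold change -0.10, SE 0.06, adjusted p 0.300), which did not pass the test. Libraries lay entirely to 1 side of PBS in 30.3% (mLIF), 40.1% (mOSM) and 47.0% (hlOSM) of all genes. The hlOSM call held without each of the 12 libraries in turn (adjusted p 0.00290 to 0.0201), whereas the mOSM call was lost without PBS replicate 2 (0.0880), PBS replicate 3 (0.0863) or mOSM replicate 2 (0.108), in the fit blocked on replicate number (0.0695) and with only the PBS and mOSM libraries in the fit (0.0609). Neither OSM form differed from mLIF by the test (adjusted p 0.481 for mOSM, 0.147 for hlOSM), so the step between mLIF and OSM is not shown.

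Tap1 and Tap2 form the transporter itself. Tap1 gave 43, 56 and 78 in PBS, 59, 60 and 51 with mLIF, 47, 41 and 46 with mOSM, and 53, 45 and 38 after hlOSM. The PBS libraries spread more widely than any cytokine group, and PBS replicate 1 lies among the OSM libraries. Tap1 was at 0.782 times the PBS level with mOSM (95% interval 0.612 to 0.999, adjusted p 0.120) and at 0.788 times with hlOSM (0.617 to 1.01, adjusted p 0.117), and neither passed the test. Without PBS replicate 1 both would be called, at log2 fold changes of -0.56 with mOSM (adjusted p 0.0145) and -0.55 with hlOSM (adjusted p 0.0137). Without PBS replicate 3 the values shrink to -0.14 (adjusted p 0.600) and -0.12 (adjusted p 0.601), and without hlOSM replicate 3 the hlOSM value is -0.23 (adjusted p 0.380). Tap2 gave 47, 62 and 66 in PBS, 59, 59 and 48 with mLIF, 47, 43 and 54 with mOSM, and 59, 47 and 50 after hlOSM. Again PBS replicate 1 is the lowest PBS library. Its log2 fold changes with mLIF, mOSM and hlOSM in turn were -0.07 (adjusted p 0.819), -0.27 (0.175) and -0.15 (0.433), and the mOSM value passes without PBS replicate 1 (-0.41, adjusted p 0.0463) and is -0.17 without PBS replicate 3 (adjusted p 0.480).

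**Figure D2:**
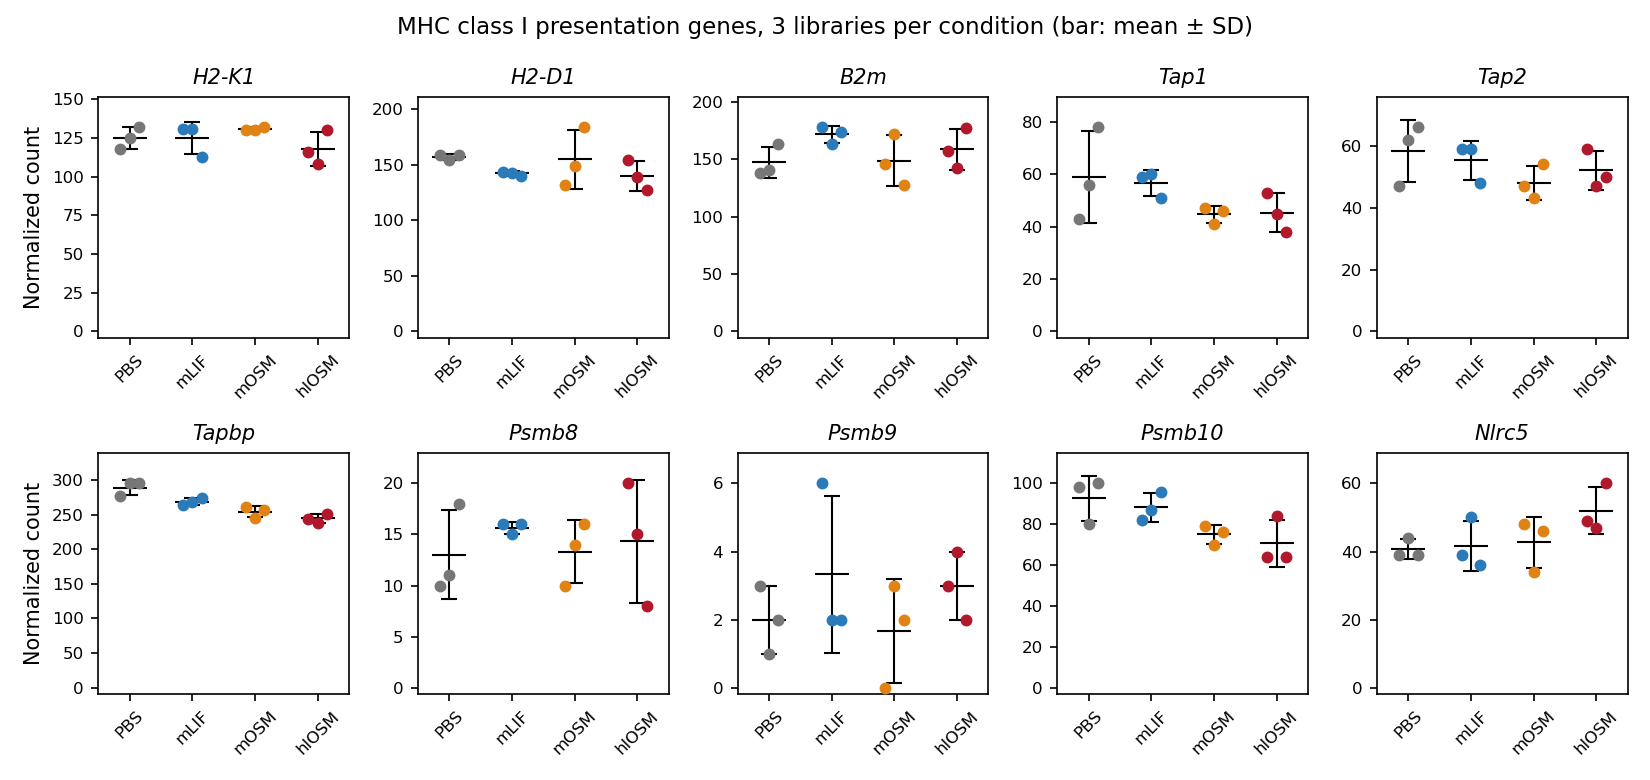
Normalized count (vertical axis, from 0) of the 10 class I genes in each of the 12 libraries. Points are libraries, the bar is the mean and the whiskers the SD over the 3 libraries of a condition. Tapbp steps down from 277 to 295 in PBS to 238 to 251 with hlOSM, and most other genes overlap between conditions.

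The inducible proteasome subunits replace Psmb5, Psmb6 and Psmb7 in the immunoproteasome, which cuts peptides better suited to class I grooves. Psmb10 (counterpart of Psmb7) fell with hlOSM. It gave 98, 80 and 100 in PBS, 82, 87 and 96 with mLIF, 79, 70 and 76 with mOSM, and 64, 84 and 64 after hlOSM. All mOSM libraries lie below all PBS libraries, while hlOSM replicate 2 lies above the lowest PBS library. The log2 fold change was -0.39 with hlOSM (SE 0.12, adjusted p 0.0138), or 0.763 times the PBS level, -0.30 with mOSM (SE 0.12, adjusted p 0.0665) and -0.06 with mLIF (SE 0.12, adjusted p 0.785). The hlOSM call was lost without PBS replicate 1 (adjusted p 0.0545), PBS replicate 3 (0.0630), hlOSM replicate 1 (0.0666) or hlOSM replicate 3 (0.0654). The mOSM value passed without PBS replicate 2 (0.0260) or hlOSM replicate 2 (0.0469), and the hlOSM and mOSM values did not differ from each other (adjusted p 0.918). Psmb8 (counterpart of Psmb5) gave 10, 11 and 18 in PBS, 16, 15 and 16 with mLIF, 10, 14 and 16 with mOSM, and 20, 15 and 8 after hlOSM. At these low counts its 95% intervals reach from 0.680 to 1.87 times the PBS level over the 3 cytokines, and none of its 3 values passed the test (smallest adjusted p 0.564). Psmb9 (counterpart of Psmb6) gave 3, 1 and 2 in PBS, 6, 2 and 2 with mLIF, 0, 3 and 2 with mOSM, and 3, 4 and 2 after hlOSM. With 6 normalized counts at most, no fold change is given for it.

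Each inducible subunit was also set against its constitutive counterpart within a library, as the log2 ratio of the normalized counts + 1. The added 1 weighs most on Psmb9. The log2 ratio of Psmb10 to Psmb7 was -1.25 ± 0.20 in PBS, and with mLIF, mOSM and hlOSM in turn -1.46 ± 0.17, -1.67 ± 0.14 and -1.72 ± 0.20 (SD, n = 3). All mOSM and hlOSM libraries lie below all PBS libraries in this ratio. For hlOSM the margin is narrow, at -1.491 in hlOSM replicate 2 and -1.480 in PBS replicate 2. How often ratios of other gene pairs separate in this way was not tested. Across the 4 conditions the difference did not pass an exact permutation test over 15400 arrangements of the libraries (one-sided p = 0.0577, adjusted p = 0.173 over the 3 ratios). The ratio of Psmb8 to Psmb5 gave exact permutation p = 0.938 (adjusted p = 0.938) and that of Psmb9 to Psmb6 p = 0.455 (adjusted p = 0.683). Psmb5, Psmb6 and Psmb7 themselves were not called in any comparison with PBS, and the smallest adjusted p among them was 0.112, for Psmb5 with mOSM.

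Nlrc5, the transactivator of class I genes, gave 39, 44 and 39 in PBS, 39, 50 and 36 with mLIF, 48, 34 and 46 with mOSM, and 49, 47 and 60 after hlOSM. All hlOSM libraries lie above all PBS libraries, as in 22.7% of all genes, and this was the only one of the 9 genes placed so in any comparison with PBS. The log2 fold change with hlOSM was 0.34 (SE 0.16, 95% interval 0.01 to 0.67), which did not pass the test (adjusted p 0.0964, and 0.0727 to 0.331 without each library in turn). With mLIF it was 0.02 and with mOSM 0.05. H2-K1, H2-D1 and B2m, as given above, had log2 fold changes of -0.09, -0.17 and 0.10 with hlOSM.

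**Figure D3:**
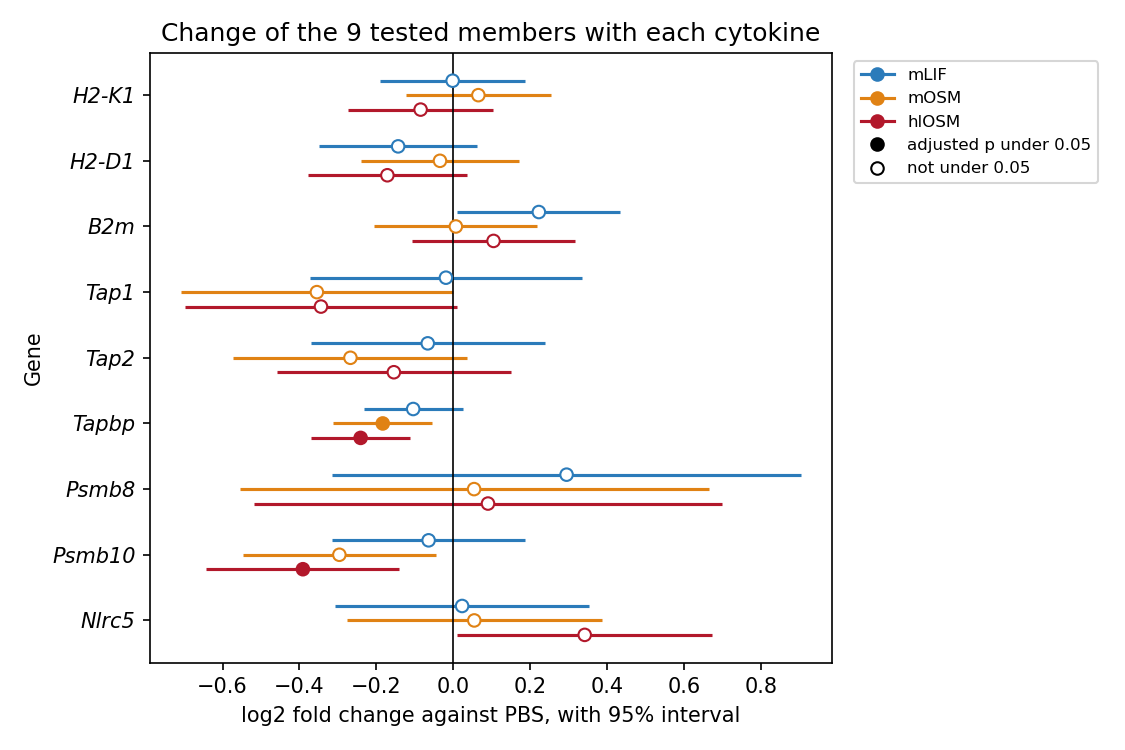
Log2 fold change against PBS (horizontal axis) with its 95% interval for the 9 tested class I genes, 1 line per cytokine. Filled circles mark an adjusted p under 0.05: Tapbp with mOSM and hlOSM and Psmb10 with hlOSM, at -0.18, -0.24 and -0.39. The intervals are not adjusted for the number of comparisons.

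The promoters of the 2 genes that fell are shown beside those above. The same 250-base stretches, chr17:33919228-33919477 (plus strand) for Tapbp and chr8:105938393-105938642 (minus strand) for Psmb10, carry the same marks.
Tapbp: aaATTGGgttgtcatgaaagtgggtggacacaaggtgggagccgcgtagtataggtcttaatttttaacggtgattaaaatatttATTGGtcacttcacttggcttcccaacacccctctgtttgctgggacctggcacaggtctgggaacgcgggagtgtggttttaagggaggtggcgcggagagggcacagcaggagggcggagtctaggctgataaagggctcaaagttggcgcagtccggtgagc
Psmb10: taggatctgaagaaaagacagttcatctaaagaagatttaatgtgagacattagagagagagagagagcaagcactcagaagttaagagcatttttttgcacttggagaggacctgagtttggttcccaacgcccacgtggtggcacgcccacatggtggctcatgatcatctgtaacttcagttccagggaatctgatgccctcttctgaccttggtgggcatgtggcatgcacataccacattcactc
Tapbp holds 2 CCAAT boxes and Psmb10 no match to any of the 4 patterns, also in the longer window. RefSeq's Tapbp start site (33919478) lies inside the gene as the count table bounds it, which starts at 33915899. The start sites of H2-D1, Psmb8, Psmb9 and Psmb10 also lie inside their genes, less far in. Among the other genes with a RefSeq promoter, Psmb8 holds a STAT match, and Tap1 and Psmb9 share 275 bases of their windows, on opposite strands with start sites 226 bases apart, with a CCAAT box. Promoters were matched for 8 of the 10 genes, all but Tap2 and Nlrc5. The absence of a match says only that these letters are not in this window.

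No difference between the cytokines passed the test in these genes. Of the 9 genes, 0 passed the test between mOSM and mLIF (11.8% of all genes), between hlOSM and mLIF (16.6%) and between hlOSM and mOSM (0.106%). The hlOSM against mOSM differences lay between -0.15 and 0.29 (log2), with adjusted p from 0.709 to 0.995. A contrast of hlOSM with the sum of the mLIF and mOSM effects, the form that a sum of both receptors' actions on the log2 scale would take, called 0 of 9 genes (0.167% of all). All mOSM libraries lie below all mLIF libraries for Tap1, Tapbp and Psmb10, and all hlOSM libraries for Tapbp, against 27.1% and 31.7% of all genes that do not overlap. In a test of any difference over the 4 conditions 2 of 9 genes passed (Tapbp, adjusted p 0.0188, and Psmb10, 0.0351), against 34.2% of all genes, and neither did in the fit blocked on replicate number (0.0646 and 0.0865). Without mOSM replicate 2, B2m passed between mOSM and mLIF (adjusted p 0.0478), and without hlOSM replicate 2, Psmb10 passed between hlOSM and mLIF (0.0157).

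The 9 genes shared little of their variation. Over the 12 libraries the 36 pairwise correlations of their log2 values ranged from -0.57 to 0.84 with a median of 0.15, and within conditions the median was 0.07. The highest of these was Tap1 with Tap2 (0.84, and 0.81 within conditions). The mean of the 9 standardized profiles followed Tap1 (r = 0.93), Tap2 (0.89) and Tapbp (0.68) most closely, and Nlrc5 least (-0.15). Each gene is itself part of that mean, which raises its r. These correlations share the libraries and their scaling and are given as a description. Genes outside the 10 were searched for likeness if their mean normalized count was at least 50. Those most like that mean profile were Trim59 (r = 0.94), Mxi1 and Nub1 (0.92 each), D5Ertd579e (0.91), and Zfp759, Ginm1, Chaf1a and Dnajc9 (0.90 each). Those most like Nlrc5 alone were Brcc3 (0.87), then Wdr12, Sgcd and Sntb1 (0.84 each) and Rnf111 (0.83). As the top of a search over many genes in 12 libraries, such r can be high by chance, which was not tested. The summed count of the 10 genes lay between 932 and 1052 in PBS, 950 and 978 with mLIF, 900 and 941 with mOSM, and 869 and 919 after hlOSM. The mean sum was 984 in PBS and 898 with hlOSM, and within it Tapbp went from 289 to 244 and Psmb10 from 92.7 to 70.7. The sum thus largely repeats those 2 calls and is no separate result for the set.

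Other genes of the same route were described from lists of chaperones, alternative heavy chains, proteasome subunits and regulators. Of 7 loading chaperones and trimming peptidases, 0 were called with mLIF, 1 was lower with mOSM and 2 were lower with hlOSM, near the 15.8% and 19.8% of all genes that were lower. Lnpep, an aminopeptidase that trims peptides in endosomes, gave 1899 to 2011 in PBS, 1660 to 1673 with mOSM and 1593 to 1803 with hlOSM (log2 fold changes -0.24 and -0.23, adjusted p 7.03e-04 and 8.10e-04). Canx (calnexin, which folds the free heavy chain) was lower with hlOSM at -0.16 (adjusted p 0.0323, and 0.0502 in the fit blocked on replicate number). Calr and Pdia3 of the loading complex, the trimming enzyme Erap1 and the tapasin relative Tapbpl were not called in any of the 3 comparisons (smallest adjusted p 0.162, for Calr with mLIF). The 3 PA28 genes, whose products activate the proteasome, gave 0 calls. With mLIF, mOSM and hlOSM in turn, Psme1 was at log2 fold changes of -0.19, -0.16 and -0.17 and Psme2 at -0.08, -0.16 and -0.06. Psme3, named after its values were seen, was at 0.04, 0.14 and 0.16.

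Of 20 nonclassical and other class I heavy chains listed, 15 had values and 9 were tested. None was higher with any cytokine, 0 were lower with mLIF, 3 with mOSM and 4 with hlOSM, against 4.44%, 15.8% and 19.8% of all genes. Fcgrt, the heavy chain of the neonatal Fc receptor, which binds IgG and albumin in place of peptide, gave 71, 66 and 69 in PBS, 58, 50 and 49 with mOSM, and 40, 43 and 48 after hlOSM (log2 fold changes -0.39 and -0.65, adjusted p 0.0191 and 2.59e-04). These 3 groups do not overlap, though the lowest mOSM library (49) and the highest hlOSM library (48) are close. With mLIF Fcgrt gave 54, 64 and 62, below all PBS libraries and overlapping mOSM (log2 fold change -0.19, adjusted p 0.331). Libraries lay entirely to 1 side of PBS in 30.3% (mLIF), 40.1% (mOSM) and 47.0% (hlOSM) of all genes. Hfe, which takes part in iron sensing, stood at log2 fold changes of -0.32 with mOSM (adjusted p 0.0320) and -0.57 with hlOSM (3.15e-04). Mr1, which presents vitamin metabolites to MAIT cells, stood at -0.39 (0.0423) and -0.48 (0.0102). H2-Q5 was lower with hlOSM at -1.0 (adjusted p 0.0125), on counts of only 9 to 11 in PBS and 4 to 5 with hlOSM. In the fit blocked on replicate number the 3 mOSM calls were lost (adjusted p 0.0590 for Fcgrt, 0.0540 for Hfe, 0.0876 for Mr1) and the 4 hlOSM calls held. Fcgrt, Hfe and Mr1 all pair with B2m. H2-T23, the mouse counterpart of HLA-E, was not called, with log2 fold changes of 0.43, 0.06 and 0.43 with mLIF, mOSM and hlOSM.

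Of 10 factors known to act on class I promoters, 0 were called with mLIF, 1 was higher and 1 lower with mOSM, and 2 were higher and 2 lower with hlOSM, while 31.2% and 37.9% of all genes were called with mOSM and hlOSM. Rfx5, a subunit of the RFX complex that NLRC5 joins, gave 74, 80 and 111 in PBS and 59, 71 and 51 with hlOSM (log2 fold change -0.53, adjusted p 0.00903), and was at -0.39 with mOSM (adjusted p 0.0562). Nfya, a subunit of the factor that binds the CCAAT box, was higher by 0.25 with mOSM (adjusted p 0.0167) and 0.21 with hlOSM (0.0380), Nfyb was higher by 0.24 with hlOSM (0.0329), and Creb1 was lower at -0.21 with mOSM (0.0191) and -0.17 with hlOSM (0.0442). Nfyc, the third subunit of the CCAAT-binding factor, named after its values were seen, was not called and stood at -0.34, -0.23 and -0.28 with mLIF, mOSM and hlOSM (adjusted p 0.0552, 0.125 and 0.0518). In the fit blocked on replicate number the hlOSM calls of Nfya (adjusted p 0.0809), Nfyb (0.0631) and Creb1 (0.0766) were lost.

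Of 17 interferon pathway genes listed, 14 had values, 13 were tested, 0 were called with mLIF, 1 was higher with mOSM, and 1 was higher and 3 lower with hlOSM, again beside 31.2% and 37.9% of all genes called with mOSM and hlOSM. The raised gene was Jak2, a kinase that both interferon gamma and gp130 receptors use, with 408, 433 and 454 in PBS, 612, 605 and 598 with mOSM, and 609, 600 and 574 after hlOSM (log2 fold changes 0.49 and 0.46, adjusted p 1.52e-06 and 2.40e-06). The lowered genes with hlOSM were Irf1 (-0.34, adjusted p 0.0169), Irf2 (-0.25, 0.0112) and the interferon gamma receptor chain Ifngr1 (-0.24, 0.0234, and 0.0634 in the fit blocked on replicate number). Irf1 gave 87, 93 and 102 in PBS, 77, 74 and 76 with mLIF, 83, 83 and 100 with mOSM, and 80, 77 and 65 after hlOSM. The interferon genes Ifng, Ifnb1 and Ifna4 were not analysed here. Of 11 other standard proteasome subunits, Psmb2 was higher with all 3 cytokines (log2 fold changes 0.53, 0.32 and 0.46) and Psma4 lower with all 3 (-0.29, -0.23 and -0.22, in the order mLIF, mOSM, hlOSM), and Psma7 was higher with hlOSM (0.23). In the fit blocked on replicate number the calls of Psmb2 with mOSM (adjusted p 0.0551) and Psma7 (0.0651) were lost. The median log2 fold changes of these lists with mLIF, mOSM and hlOSM, beside all-gene medians under 0.01 in size, were -0.14, -0.10 and -0.08 for the chaperones and peptidases, -0.09, -0.13 and -0.03 for the other heavy chains, -0.06, -0.07 and -0.05 for the promoter factors, -0.01, -0.08 and -0.10 for the interferon pathway, and 0.06, 0.06 and 0.10 for the standard proteasome subunits.

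**Figure D4:**
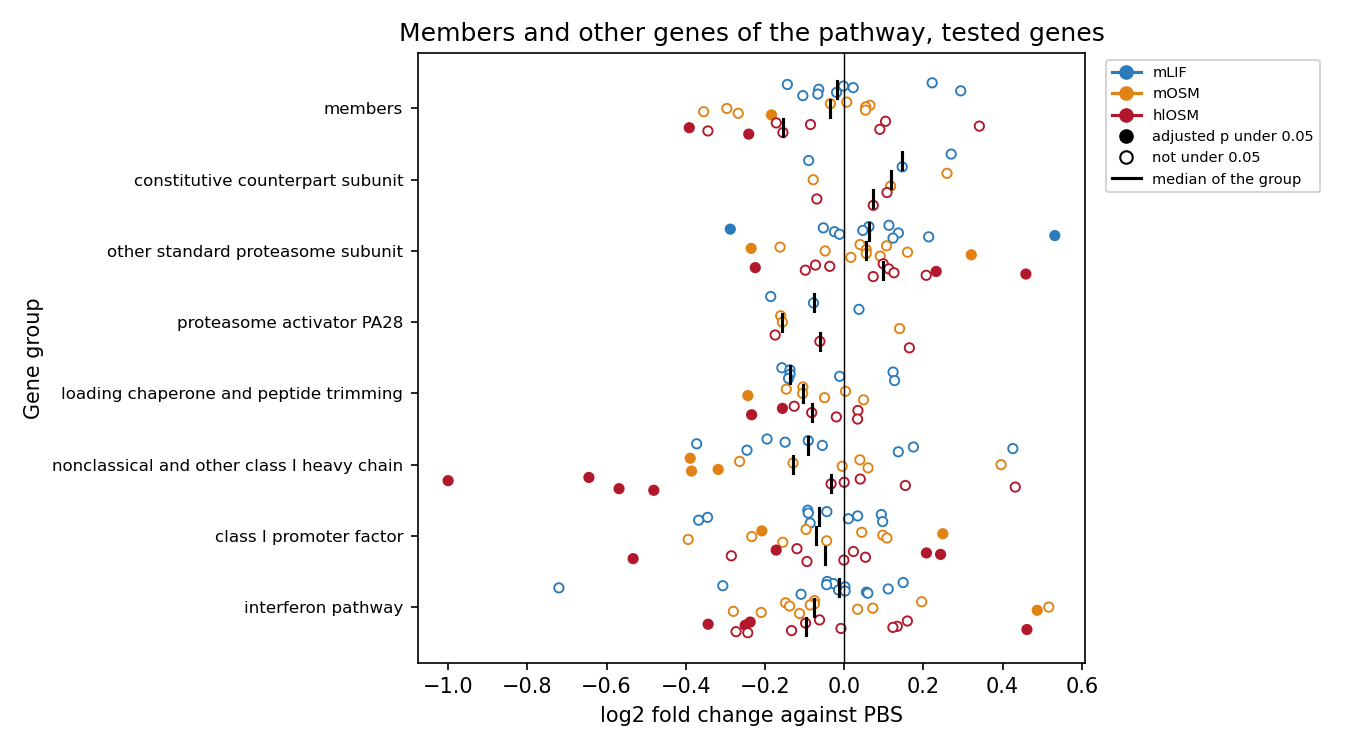
Log2 fold change against PBS (horizontal axis) of each tested gene of the class I set and of 7 related lists, coloured by cytokine. Filled circles mark an adjusted p under 0.05 and black bars the median of a list. Among the class I genes and the alternative heavy chains all filled circles lie left of 0, down to -1.0 for H2-Q5 with hlOSM.

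Markers of other cell types were measured in the same libraries, since leukocytes and endothelial cells carry more class I than cardiomyocytes. Over all genes 4.44%, 15.8% and 19.8% were lower and 5.47%, 15.4% and 18.2% higher with mLIF, mOSM and hlOSM. The 8 cardiomyocyte markers summed to 47572 to 49402 normalized counts in PBS, 41237 to 43056 with mLIF, 33380 to 37353 with mOSM and 34186 to 36611 with hlOSM. Most of that sum is Ttn, at 32687 to 33150 in PBS. Of these 8 markers 6, 7 and 7 were lower with mLIF, mOSM and hlOSM. The 8 endothelial markers summed to 1102 to 1166 in PBS, 1105 to 1162 with mLIF, 1370 to 1527 with mOSM and 1377 to 1476 with hlOSM, with 0, 5 and 6 of 8 higher, and 1 (Pecam1) was lower with mLIF. The 6 mural cell markers summed to 950 to 1188 in PBS, 882 to 934 with mLIF, 660 to 714 with mOSM and 602 to 626 with hlOSM, with 0, 5 and 6 of 6 lower. Of 8 fibroblast markers 0, 2 and 3 were higher and 1, 3 and 5 lower, with sums of 2296 to 2526 in PBS, 2110 to 2251 with mLIF, 2459 to 2885 with mOSM and 2307 to 2540 with hlOSM. Calls lost in the fit blocked on replicate number included the cardiomyocyte markers Ryr2 (adjusted p 0.0670) and Pln (0.0575) with mLIF. The endothelial marker Tek with hlOSM (0.0647) and the fibroblast markers Col1a2 with mLIF (0.0755) and Lum with hlOSM (0.0748) were lost as well. Of 10 leukocyte markers 6 had values, with sums of 303 to 326 in PBS, 284 to 316 with mLIF, 345 to 382 with mOSM and 320 to 390 with hlOSM, and 1, 1 and 1 were higher and 0, 1 and 1 lower. Ptprc, which marks leukocytes in general, was at 13 to 32 in every library, Cd68 was higher with all 3 cytokines (40 to 61 in PBS, 109 to 170 with hlOSM), and Cd3e, Nkg7 and S100a8 were not analysed here. The leukocyte markers called lower, named after their values were seen, were Itgam with mOSM (log2 fold change -1.13, adjusted p 0.0325) and Lyz2 with hlOSM (-0.27, adjusted p 0.0163). Itgam counts were low and overlapped, at 8, 12 and 26 in PBS and 11, 4 and 4 with mOSM. Class II presentation genes, a sign of antigen-presenting leukocytes, summed to 14 to 39 over 7 genes in the 12 libraries, with Cd74 at 2 to 8. The part of these shifts in the Tapbp and Psmb10 differences was not tested, and in bulk samples fewer cells of a type and less RNA per cell cannot be told apart.

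Some of the 10 genes share sequence or exons with others, which limits how reads can be assigned. No exon of H2-K1, H2-D1, B2m or Psmb10 overlaps another gene. Of the 75-base windows of their transcripts, 3.10% for H2-K1 and 5.56% for H2-D1 also occur in other class I genes, and per the study's methods reads that map to several regions or overlap several genes were not counted. Tapbp shares 24.9% of its exonic bases with Gm19412 on the other strand, which held 0 to 3 normalized counts, and 4.11% with Zbtb22 on the same strand (145 to 181). Tap2 (18.5%) and Psmb8 (14.7%) overlap predicted genes on the other strand, and Tap1 and Psmb9 overlap each other in 3.87% and 5.79% of their exonic bases. Reads from shared exons can therefore be missing from these counts, and whether strand decided what counted as shared is not given in the sources used here.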

How the data were processed

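RNA of 12 cardiomyocyte cultures was made into libraries with a stranded total RNA kit and sequenced. The submitters' processing notes name FastQC, STAR 2.7.7a and featureCounts 1.6.5 and the mm10 build. The deposited score is a normalized count per gene, counted, normalized and rounded to whole numbers by the authors before deposit, and the normalization method is not given in the sources used here. The 12 libraries sum to between 2745748 and 2911891 after that scaling, so the depth of each library cannot be read from them (the study's methods state only an average over libraries), and no counting interval is given.

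The columns of the authors' own comparisons were not used. Genes with a value of at least 10 in at least 3 libraries were kept (13184 of 22915), and log2(value + 1) was fitted with limma 3.58.1 in R 4.3.3 (a mean-variance trend, 4 conditions in 1 fit, two-sided, Benjamini-Hochberg adjustment over all genes tested). A fold change is therefore on the log2(value + 1) scale, which understates the change of low genes. Subunit ratios were compared with exact permutation tests in Python 3.11.15. Scripts were tested on simulated data. Alternatives were another pseudocount, filter, rescaling and fit, the replicate number as a block, and each library left out in turn. The members and lists were chosen with earlier results of these data known. All 10 members are named. Of each other list the text names the counterparts Psmb5, Psmb6 and Psmb7, a preset list of regulators and chaperones, and up to 6 genes past the threshold by the smallest p over the 4 conditions. Exon lengths and overlaps come from GENCODE's mouse annotation, in which all 10 genes have the table's coordinates. The promoters are RefSeq's; H2-K1 has 2 and the first listed was used.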

Additional observations from a re-analysis of the deposited data

How the results depend on the processing

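No member was called higher in any alternative, and no direction of a called value reversed. For mOSM against PBS the count of 1 called member became 2 with quantile rescaling (Psmb10 joined), 0 with only the compared libraries in the fit, 0 with the replicate block and 0 at an adjusted p under 0.01, and ranged from 0 to 3 without each library in turn. For hlOSM the count of 2 became 1 at an adjusted p under 0.01 and ranged from 1 to 2 without each library. Without 1 library the count ranged from 0 to 1 for mOSM against mLIF and for hlOSM against mLIF. Over the 4 conditions the count of 2 became 0 with the replicate block, 0 at an adjusted p under 0.01, and ranged from 0 to 2 without each library. The median log2 fold change of the members with mOSM was -0.18 with a filter at 50 and ranged from -0.16 to -0.027 without each library, and that with hlOSM from -0.24 to -0.060. Other pseudocounts (0.1 and 5), no filter, TMM rescaling and robust shrinkage left each count of called members as it was. Psmb9 has no ratio under quantile rescaling, which used the filtered genes. Same-numbered libraries correlated at -0.52 to 0.02 in their deviations from the condition means, and other pairs at -0.12 to 0.48. Of the 12 libraries, 0 correlated best with a library of its own number. Same-numbered libraries thus tended to be less alike than other pairs, so the replicate numbers did not behave as unrelated labels. Whether the libraries were paired cannot be read from these correlations, and the reason for the low values was not tested. With the block, the exact p of the Psmb10 to Psmb7 ratio was 0.142. Low values, with the depth of each library unknown, limit Psmb8 and Psmb9. The cause of the changed calls was not tested.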
